A study of Arabidopsis thaliana with 12 samples.

Results

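MRD1 (AT1G53480) and QQS (AT3G30720) were taken from the deposited tables by gene identifier, 2 of the 33602 genes the authors tested and of the 8607 genes listed in at least 1 of the 5 tables. They had been picked because their RNA differed strongly between the genotypes, so their genotype differences are given as a description, with no test. RNA from roots of Arabidopsis thaliana seedlings was sequenced after depletion of ribosomal RNA, at 6 days after germination. The 12 libraries form 4 groups of 3, all in accession Col-0: wild type (WT) on control plates, WT on 0.01 uM paraquat, trm4b-1 on control plates and trm4b-1 on 0.01 uM paraquat. All plants grew on half-strength MS medium, and paraquat is a herbicide that makes chloroplasts and other compartments form superoxide. TRM4B is an RNA methyltransferase that makes 5-methylcytosine. In the authors' deposited tables, TRM4B RNA was 7.43-fold higher on control medium and 14.9-fold higher on paraquat in the libraries labelled trm4b-1, so these are called by their label throughout.

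MRD1 is named for its low RNA level in mto1 mutants, which over-accumulate methionine because cystathionine gamma-synthase, the MTO1 product, escapes feedback control. QQS is an orphan gene, one with no recognisable relative outside its species, whose small protein alters how carbon is divided between starch and protein and binds the nuclear factor Y subunit NF-YC4. QQS is also known for RNA levels that differ between natural accessions along with DNA methylation of repeats before its start.

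The sequence before each start is shown because QQS is known for methylation there and because both MRD1 exons begin within the neighbouring gene HEI10, the long one in a HEI10 exon. The deposited exons place QQS on the plus strand of chromosome 3 with 3 exons, at 12349047 to 12349317, 12349432 to 12349478 and 12349565 to 12349832. MRD1 lies on the minus strand of chromosome 1 with exons at 19963047 to 19964188 and 19964605 to 19964712. For MRD1, 2 places were read as starts, an outer one at its short first exon and an inner one where the long exon begins. The deposited exons do not show whether RNA starts at the inner one. Each line gives 250 bases before a start, 5′ to 3′ on the gene's strand, in the RefSeq assembly TAIR10.1, with CG in capitals, a context in which both strands can carry methylation.
QQS, chr3:12348797-12349046, plus strand: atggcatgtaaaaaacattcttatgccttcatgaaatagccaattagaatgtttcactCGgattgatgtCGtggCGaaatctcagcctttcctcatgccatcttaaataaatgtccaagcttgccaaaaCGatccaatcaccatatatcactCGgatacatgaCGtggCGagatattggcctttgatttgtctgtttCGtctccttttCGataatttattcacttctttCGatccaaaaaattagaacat
MRD1 outer start, chr1:19964713-19964962, minus strand: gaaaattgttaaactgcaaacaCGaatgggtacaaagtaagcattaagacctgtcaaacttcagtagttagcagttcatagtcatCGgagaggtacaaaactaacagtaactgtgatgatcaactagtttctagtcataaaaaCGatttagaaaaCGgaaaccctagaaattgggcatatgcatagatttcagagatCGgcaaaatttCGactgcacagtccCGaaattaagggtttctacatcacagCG
MRD1 inner start, chr1:19964189-19964438, minus strand: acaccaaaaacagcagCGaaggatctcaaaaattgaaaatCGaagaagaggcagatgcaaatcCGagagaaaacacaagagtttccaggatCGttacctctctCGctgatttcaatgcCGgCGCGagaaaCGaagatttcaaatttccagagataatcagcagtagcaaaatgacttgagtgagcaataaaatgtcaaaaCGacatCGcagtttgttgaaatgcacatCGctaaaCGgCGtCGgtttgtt

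The QQS window held 10 CG pairs, more than 87.5% of the 27437 windows of this length read before annotated starts, where the median was 5. It held 6 cytosines in CHG and 68 in CHH context (H is any base but G), counted on both strands. The outer MRD1 window held 8 CG pairs and 24 CHG cytosines. The inner MRD1 window held 15 CG pairs, at the 97.7th percentile of all windows. The letters CCAAT, which nuclear factor Y binds, occurred 3 times before QQS, once before the outer MRD1 start and not before the inner one, on either strand. CCAAT was present in 46.0% of all windows, and TATAAA, present in 47.4%, was in none of the 3 shown. These are matches of letters, and no methylation was measured in these libraries.

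The QQS window also held a direct repeat, looked for after the values had been seen, shown here because repeats before QQS are where its methylation is known to vary. The copies are 24 bases long, start 94 bases apart and match at 21 positions, which are in capitals.
QQS repeat, first copy, chr3:12348850-12348873: TCACTCGGATtgATGtCGTGGCGA
QQS repeat, second copy, chr3:12348944-12348967: TCACTCGGATacATGaCGTGGCGA
The second copy begins 103 bases before the start of QQS. A direct repeat scoring at least as high was found in 11.8% of all windows, so such repeats are not rare.

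MRD1 RNA was far lower in the libraries labelled trm4b-1 on both media. The authors' deposited table for control medium gives a log2 difference of -7.79, a 221-fold lower level, with a standard error of 0.52 recovered from its p-value (95% interval -8.89 to -6.69, or 103- to 473-fold lower). On paraquat the authors' deposited table gives -6.54 ± 0.46 (SE; n = 3 per group), 93.2-fold lower, with an interval of 47.4- to 183-fold. Both values belong to the contrasts on which MRD1 was picked, and neither is support for the other. Among the 1225 genes listed on control medium and the 75 listed on paraquat, MRD1 had the largest difference of either sign, and it stood in place 7 and 5 by p-value. Of all genes tested, 3.65% were listed on control medium and 0.223% on paraquat, and nothing is read from the place of MRD1 among them, since it was picked on these contrasts. An adjusted p under 0.05, the threshold for calling a gene changed here, was reached on control medium by 2.03% of genes (0.839% higher, 1.19% lower) and on paraquat by 0.143% (0.0714% in each direction). With only differences between groups deposited, the level of each library, and whether MRD1 was near 0 in the libraries labelled trm4b-1, cannot be given. In RNA from whole roots, fewer cells that express a gene and less RNA per cell cannot be told apart.

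Paraquat gave no listed change of MRD1 in either genotype. The difference of the 2 genotype values, which is also the difference of the 2 paraquat responses, was rebuilt as 1.24 ± 0.69 on the log2 scale (95% interval -0.23 to 2.71). That error rests on the recovered 15.3 degrees of freedom, and with the 8 residual ones alone it would be 0.26, which puts 0 outside the interval. Since that difference is fixed and neither response passed the listing limit (an adjusted p under 0.1), the response lay between -1.77 and 0.72 in WT and between -0.52 and 1.96 in libraries labelled trm4b-1. Both ranges include 0, but with 8 degrees of freedom they become -0.74 to -0.41 in WT and 0.51 to 0.83 in libraries labelled trm4b-1, which leaves 0 outside both. Under either setting they are small beside the genotype difference. For QQS in WT, 8 degrees of freedom give an error of 0.43 for a rebuilt paraquat response of -1.42. QQS would then pass the listing limit but was not listed there, so that setting is at odds with the deposited table. Paraquat called 17.0% of tested genes in WT (7.99% higher, 9.01% lower; 21.6% listed) and 9.05% in libraries labelled trm4b-1 (4.72% higher, 4.33% lower; 12.2% listed), and MRD1 was in neither set.

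QQS behaved otherwise: its genotype difference was present on paraquat and was not listed on control medium. In the authors' deposited table for paraquat medium, QQS was 3.16 ± 0.54 log2 units higher in libraries labelled trm4b-1 (95% interval 2.02 to 4.30), a level 8.91-fold that of WT. It was the second largest of the 38 rises listed there. On control medium, the difference rebuilt from the interaction and the paraquat value was -0.78 ± 0.55 (95% interval -1.95 to 0.39), an interval that includes 0. The authors' deposited interaction table gives 3.94 ± 0.77 for QQS (95% interval 2.30 to 5.57), the seventh largest of 185 positive values, in a comparison that listed 0.943% of all genes and called 0.318% (0.152% higher, 0.167% lower). That value is built from the contrast QQS was picked on and is a description.

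**Figure D1:**
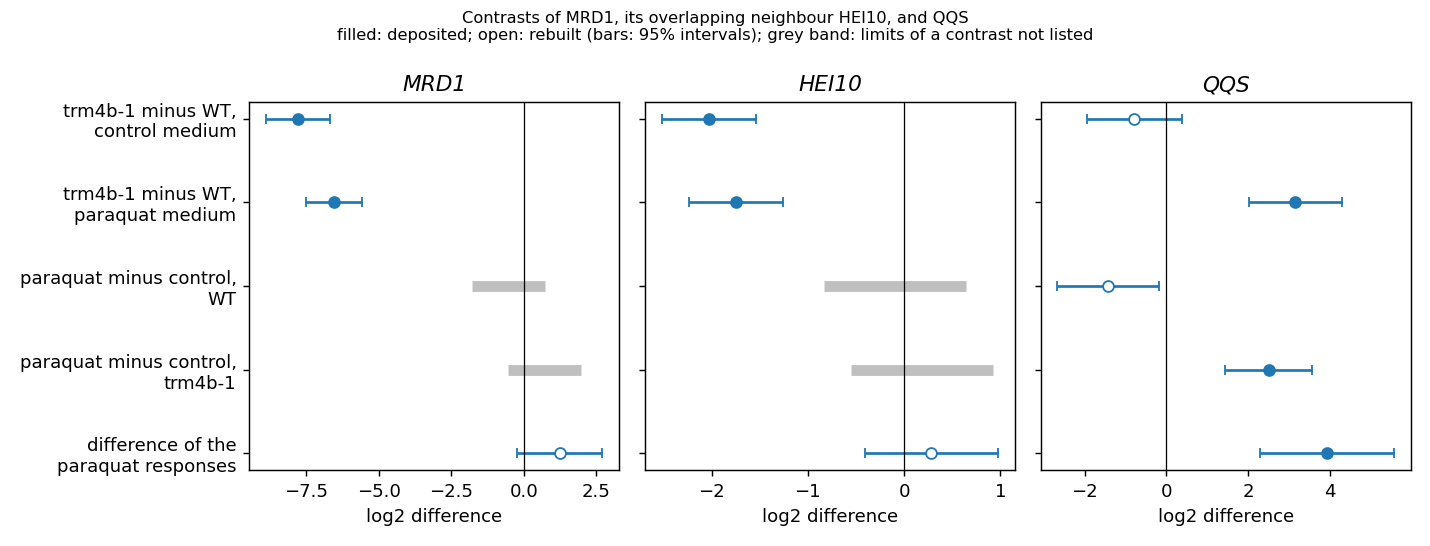
Log2 differences of MRD1, HEI10 and QQS (x axis, log2 units, a separate range for each gene) in the 5 comparisons (rows, n = 3 libraries per group). Filled points are deposited and open points rebuilt, bars are 95% intervals, and grey bands are the limits of comparisons not listed. MRD1 and HEI10 lie left of 0 in both genotype rows, while the QQS genotype point moves from -0.78 on control medium to 3.16 on paraquat.

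The paraquat response of QQS was positive in libraries labelled trm4b-1, where it passed the threshold, and negative in WT, where it did not. In libraries labelled trm4b-1, QQS rose by 2.51 ± 0.50 log2 units (5.70-fold) with paraquat, and the authors' deposited table gives a limma adjusted p of 0.00375. Those paraquat libraries also entered the comparison that QQS was picked on, so this p is not independent of the choice. It stood at place 178 of the 2082 rises listed there by size. In WT, the rebuilt response was -1.42 ± 0.58 (95% interval -2.67 to -0.18), 2.68-fold lower on paraquat, and its unadjusted p of 0.0274 from the recovered limma statistic lay just beyond the largest p listed in that table, 0.0216.

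Set on one scale with WT on control medium at 0, the QQS log2 level was -1.42 in WT on paraquat, -0.78 in libraries labelled trm4b-1 on control medium and 1.73 in those on paraquat. In linear terms these were 0.372, 0.582 and 3.32 times the WT control level. The order from low to high was WT paraquat, trm4b-1 control, WT control and trm4b-1 paraquat. The neighbours trm4b-1 control and WT control did not differ beyond their spread. Standard errors could not be recovered for the 0.64 between WT paraquat and trm4b-1 control, nor for the 1.73 between WT control and trm4b-1 paraquat. The same levels cannot be set out for MRD1, because its paraquat responses are known as limits alone.

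**Figure D2:**
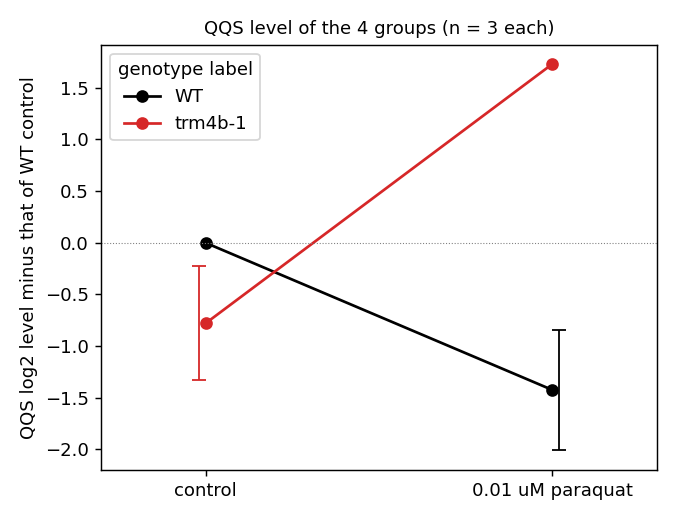
QQS log2 level of each group (y axis, log2 units) minus that of WT control, on control medium and 0.01 uM paraquat (x axis), with 1 line per genotype label and n = 3 libraries per group. Bars are standard errors of the difference from WT control, and the trm4b-1 paraquat point has none because its error could not be recovered. The lines cross, with WT falling to -1.42 and trm4b-1 rising from -0.78 to 1.73.

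The recovered standard errors of both genes ranked high among listed genes. The standard error of MRD1 was larger than that of 94.9% of the genes listed on control medium and 86.7% of those listed on paraquat, where the median errors were 0.15 and 0.18. For QQS the share was 92.0% in the genotype comparison on paraquat, 92.3% in the paraquat comparison of libraries labelled trm4b-1 and 94.3% in the interaction. These errors come from a fit over all 4 groups, so they do not show which group or library varied. Listing keeps genes whose error is small beside their change, so a gene with a large difference can be listed at a large error, and nothing is read from these ranks about variability.

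MRD1 shares its place in the genome with HEI10, on the opposite strand. HEI10 (AT1G53490, chromosome 1, 19963267 to 19966952) encodes a RING finger protein needed for crossovers in meiosis. Of the 1250 exon bases of MRD1, 922 (73.8%) lie within HEI10 exons, and these make up 40.9% of the 2252 exon bases of HEI10. An antisense RNA of the TAIR10.1 annotation, AT1G07887, covers 1039 of the MRD1 exon bases (83.1%). It was listed in 0 tables, but whether it was among the genes tested is not known, so nothing is read from that. MRD1 exons had 20 other matches in the genome and HEI10 exons had 6. The best MRD1 match lies on chromosome 5, where 1060 aligned bases at 725458 to 726512 were 89.9% identical to MRD1. The gene annotated there, AT5G03090, was listed in 0 tables. The best HEI10 match lies in the same stretch, with 840 aligned bases at 89.0% identity. QQS exons had 0 other matches in the genome.

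HEI10 was lower in libraries labelled trm4b-1, and the authors' deposited tables give -2.03 ± 0.23 on control medium (limma adjusted p 0.000287) and -1.74 ± 0.23 on paraquat (limma adjusted p 0.00254). Its rebuilt interaction was 0.28 ± 0.33, and its paraquat responses lay between -0.83 and 0.64 in WT and between -0.55 and 0.93 in libraries labelled trm4b-1. HEI10 thus took the direction of MRD1 in both genotype comparisons, at a smaller size of 4.08-fold and 3.35-fold lower. Whether reads were assigned by strand is not given in the sources used here, so RNA of MRD1, HEI10 and AT1G07887 cannot be told apart over the shared exons.

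**Figure D3:**
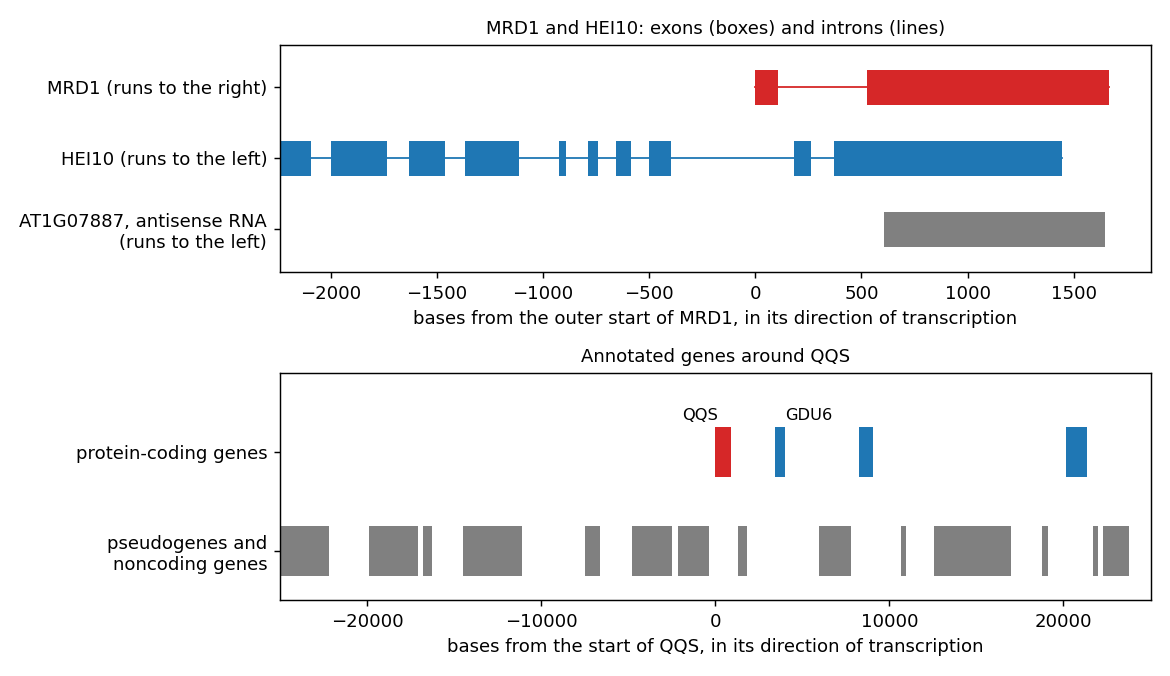
Annotated genes around MRD1 (top) and QQS (bottom), with distance from each gene's start in its direction of transcription (x axis, bases). Boxes are exons in the top panel and whole genes in the bottom panel. The long MRD1 exon lies mostly over HEI10 and AT1G07887 exons, whereas QQS and GDU6 stand among pseudogenes.

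Of the 10 annotated genes on each side of MRD1, 1 of 20 was called in each genotype comparison, beside 2.03% of all genes on control medium and 0.143% on paraquat. In both it was HEI10, whose exons overlap those of MRD1. MSL4, a mechanosensitive ion channel gene 1220 bases away, had a genotype value of 0.49 ± 0.13 on control medium that missed the threshold in the authors' deposited table (limma adjusted p 0.0683), in the direction opposite to MRD1. With paraquat MSL4 rose by 0.93 ± 0.13 in WT and by 0.54 ± 0.12 in libraries labelled trm4b-1. Paraquat comparisons called 3 of 20 neighbours in WT and 2 of 20 in libraries labelled trm4b-1, beside the 17.0% and 9.05% of all genes. The others were the receptor-like kinase gene AT1G53440, with -0.39 ± 0.12 in WT and -0.57 ± 0.13 in libraries labelled trm4b-1, and AT1G53460, which rose by 0.51 ± 0.15 in WT. AT1G53400 (-0.40) and AT1G53430 (-0.29) were listed in the authors' deposited table for libraries labelled trm4b-1 without passing the threshold.

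QQS stands among pseudogenes. Of its 20 nearest neighbours, 15 (75.0%) are annotated as pseudogenes, against 12.7% of 38312 annotated genes and 0 of the 20 around MRD1. No neighbour was listed in a genotype comparison or in the interaction, where 3.65%, 0.223% and 0.943% of all genes were listed, so 0 of 20 is near the background. Whether all of these 20, or of the 20 around MRD1, were among the genes tested is not known. GDU6, of the glutamine dumper family that affects amino acid export, lies 2539 bases beyond QQS between gene ends of the TAIR10.1 annotation. Its deposited exon runs from 12352509 to 12352844. GDU6 rose with paraquat in both genotypes, and the authors' deposited tables give 2.90 ± 0.35 in WT (limma adjusted p 3.69e-05) and 2.46 ± 0.32 in libraries labelled trm4b-1 (limma adjusted p 0.000108). In WT, GDU6 and QQS thus had values of opposite sign, whereas in libraries labelled trm4b-1 both rose by a similar amount, 2.46 and 2.51.

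Genes most like MRD1 were sought by the distance between log2 differences in both genotype comparisons, over the 25 other genes listed in both. The nearest was AT5G46295, an uncharacterised gene, with -3.69 ± 0.53 on control medium and -4.26 ± 0.52 on paraquat, at a distance of 4.69. HEI10 came next at 7.49, then AT1G33700, annotated as a beta-glucosidase, with -1.58 and -0.92. G6PD3, a glucose-6-phosphate dehydrogenase, and PAO4, a polyamine oxidase, followed at 8.75 and 9.32. Even the nearest was thus 4.69 log2 units off. MRD1 was picked on these comparisons and had the largest difference in both, so nothing is read from that distance.

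**Figure D4:**
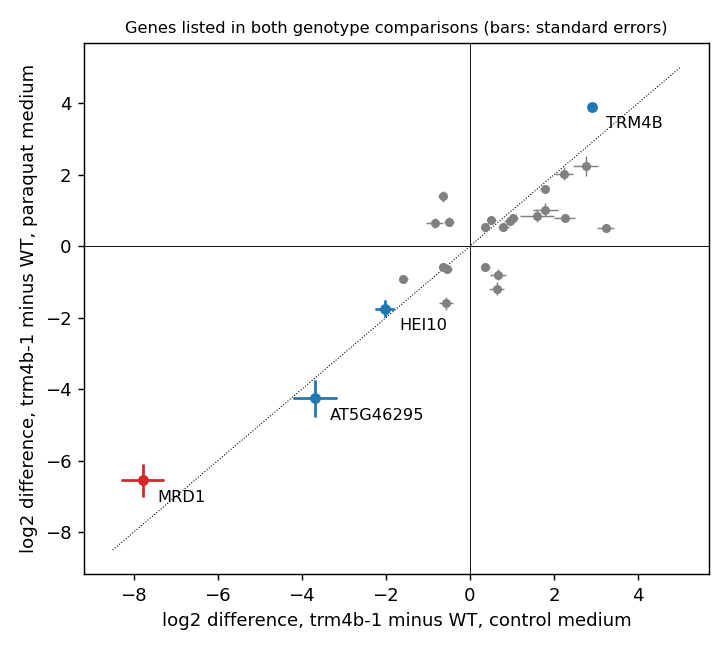
Log2 difference between libraries labelled trm4b-1 and WT on control medium (x axis) against that on paraquat (y axis) for the genes listed in both comparisons, with standard errors as bars and n = 3 libraries per group. The dotted line marks equal values. MRD1, at -7.79 and -6.54, lies farthest from 0, with AT5G46295 the nearest to it and HEI10 next.

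For QQS, likeness was measured over the 3 comparisons in which it was listed, among 32 other genes listed in the same 3. AT1G34047, a defensin-like gene, was nearest at a distance of 2.46. In the authors' deposited tables it had 2.46 ± 0.32 in the genotype comparison on paraquat, 1.05 ± 0.26 with paraquat in libraries labelled trm4b-1 and -1.04 ± 0.35 in WT, the last without passing the threshold (limma adjusted p 0.0523). CSD1, the cytosolic copper/zinc superoxide dismutase, came next with 1.52, 1.70 and an interaction of 2.05. The others were TRM4B at 3.39, AT2G15220 at 3.58 and AT1G16260 at 3.68. These comparisons share libraries, so the likeness describes the values and is no count of separate evidence.

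Genes of the pathways around both loci were read from 7 lists. The shares of all genes are over the 33602 tested, and whether genes silent in roots are among these is not known. A list above such a share is therefore not read as enriched. Of 25 genes for DNA methylation and its removal, 0 were called in a genotype comparison, beside 2.03% of all genes on control medium and 0.143% on paraquat. With paraquat, 2 were higher and 0 lower in each genotype, a share below the 17.0% of all genes in WT and near the 9.05% in libraries labelled trm4b-1. AGO4, an Argonaute protein of RNA-directed DNA methylation, rose by 0.49 ± 0.08 in WT and by 0.26 ± 0.07 in libraries labelled trm4b-1. In the authors' deposited table, DML1, also called ROS1, a demethylase, rose by 0.33 ± 0.10 with paraquat in libraries labelled trm4b-1 (limma adjusted p 0.0453). Between genotypes on control medium the authors' deposited table gives DRM1, a de novo DNA methyltransferase, 2.20 ± 0.62 (limma adjusted p 0.0880) and DML1 0.37 ± 0.10 (limma adjusted p 0.0789). On the same medium SUVH4, a histone H3 lysine 9 methyltransferase, had 0.40 ± 0.11 (limma adjusted p 0.0809 in that deposited table). On paraquat medium DML1 had 0.53 ± 0.10 (limma adjusted p 0.0607 in that deposited table). None of these passed, and they are named after their values were seen. Of 14 loci known for silencing or imprinting, 0 were called between genotypes, near the 2.03% and 0.143% of all genes. With paraquat, 1 was called in WT (7.14%) and 0 in libraries labelled trm4b-1, beside 17.0% and 9.05% of all genes. The 1 was PAI1, a tryptophan biosynthesis gene, which rose by 0.68 ± 0.18.

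The methionine list bears on the origin of the name MRD1. MTO1, the gene whose mutants have low MRD1 RNA, was not listed in either genotype comparison, and with paraquat in WT the authors' deposited table gives it -0.38 ± 0.13 without passing the threshold (limma adjusted p 0.0649). Of 26 genes for methionine and S-adenosylmethionine, 1 was called between genotypes. This was MTK, the methylthioribose kinase of the methionine salvage cycle, which the authors' deposited table puts 0.36 ± 0.09 higher on control medium in libraries labelled trm4b-1 (limma adjusted p 0.0417). Paraquat called 2 higher and 2 lower in WT (15.4%) and 2 higher in libraries labelled trm4b-1 (7.69%), near the 17.0% and 9.05% of all genes. The share called between genotypes on control medium, 1 of 26, stood beside 2.03% of all genes.

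For QQS, the starch genes and the nuclear factor Y subunits were read. None of the 37 starch genes and none of the 25 subunits was called in a genotype comparison or in the interaction. With 2.03%, 0.143% and 0.318% of all genes called there, counts of 0 are near the background and say nothing particular about these lists. With paraquat, 7 starch genes rose and 7 fell in WT (37.8% called), and 3 rose and 9 fell in libraries labelled trm4b-1 (32.4%), beside 17.0% and 9.05% of all genes. The median of the listed starch genes was -0.02 in WT and -0.63 in libraries labelled trm4b-1, against -0.26 and 0.25 over all listed genes. SEX1, the glucan water dikinase that starts starch breakdown, fell by 0.98 ± 0.09 in WT and fell by 1.06 ± 0.09 in libraries labelled trm4b-1. PHS1, the plastid starch phosphorylase, fell by 0.71 ± 0.08 in WT and fell by 0.81 ± 0.08 in libraries labelled trm4b-1. Each of the starch genes called in both genotypes, such as these, had the same sign in both. Opposite signs with both called would need a large interaction, and 0.318% of all genes were called there. QQS had opposite signs with a WT value that was not listed, so no contrast with the starch genes is read.

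**Figure D5:**
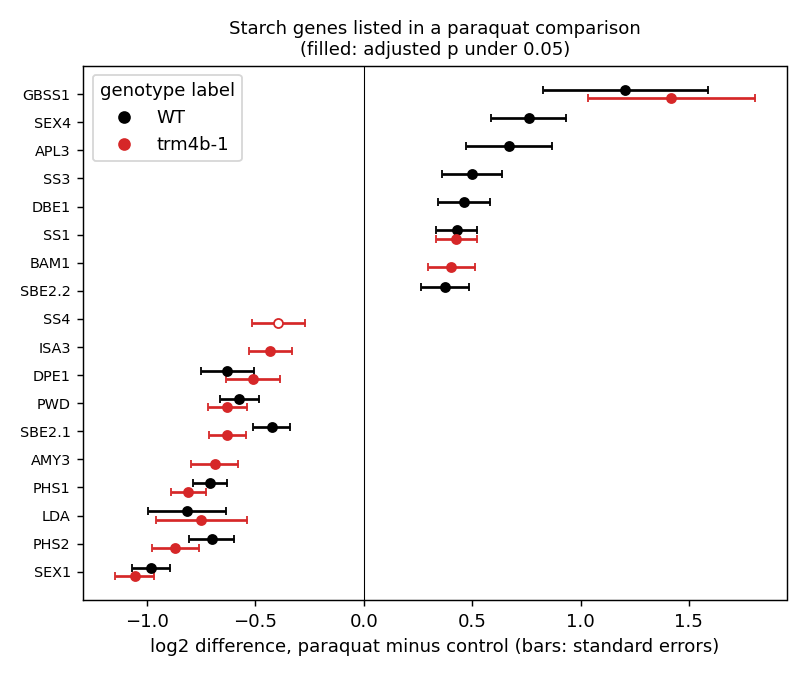
Log2 difference between paraquat and control medium (x axis, log2 units, bars are standard errors) for the starch genes listed in a paraquat comparison (rows), by genotype label with n = 3 libraries per group. Filled points have an adjusted p under 0.05. Genes with a point in both genotypes, such as SEX1 at -0.98 and -1.06, lie on the same side of 0.

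In the authors' deposited tables, NF-YC4, the known protein partner of QQS, fell by 0.69 ± 0.16 with paraquat in WT (limma adjusted p 0.00618). In libraries labelled trm4b-1 it had -0.51 ± 0.16 without passing the threshold (limma adjusted p 0.0625 in that deposited table). In WT 5 subunits rose and 1 fell (24.0% called), and 4 rose and 1 fell in libraries labelled trm4b-1, 5 of 25, beside 17.0% and 9.05% of all genes. NF-YC3 rose by 0.56 ± 0.10 in WT and by 0.40 ± 0.10 in libraries labelled trm4b-1. The median of the listed subunits was 0.55 in WT and 0.40 in libraries labelled trm4b-1, against -0.26 and 0.25 over all listed genes. These values concern RNA, and neither the NF-YC4 nor the QQS protein was measured.

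Marker genes of shoot and root cells moved mainly with paraquat in WT. There the rebuilt QQS value was -1.42 ± 0.58, just beyond the listing limit. Of 15 photosynthesis genes that mark shoot tissue, 11 fell and 0 rose with paraquat in WT (73.3% called; median of those listed -1.85), and 1, LHCB2.1, rose by 1.87 ± 0.53 in libraries labelled trm4b-1, beside 17.0% and 9.05% of all genes. None of the 15 was listed in the genotype comparison on paraquat or in the interaction. With 0.223% and 0.943% of all genes listed there, 0 of 15 is near the background. On control medium, 1 of 15 fell between genotypes, RBCS1A with -1.87 ± 0.36, beside 2.03% of all genes called. Of 10 root markers, 3 fell between genotypes on control medium, and with paraquat 1 rose and 4 fell in WT and 0 were called in libraries labelled trm4b-1. Of all genes, 2.03%, 17.0% and 9.05% were called in these 3 comparisons. EXPA7 and EXPA18, root hair expansins, were among those that fell, with -0.93 and -0.94 between genotypes on control medium. They were also listed in the authors' deposited interaction table, as QQS was, with 1.03 and 1.07, without passing the threshold. Levels per library and summed marker levels cannot be given from tables of differences, and the part of these markers in the MRD1 and QQS values was not tested.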

How the data were processed

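Per the labels' protocols, total root RNA was depleted of ribosomal RNA and sequenced, and per the submitters' processing notes Trimmomatic, TopHat, limma and the build TAIR10 were used. How reads were counted, scaled and filtered, and whether by strand, is not given in the sources used here. Per the file headers, the authors' 5 deposited tables hold comparisons. Every gene in them had an adjusted p under 0.1. Their log fold changes were read as log2, limma's usual scale, since the deposited headers name no base. The deposited p-values, adjusted p-values and q-values are limma's. Depth per sample is unknown, so no interval rests on counts, and the 3 replicates of a group are called biological with no origin given, so p-values measure the spread between these samples.

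The number of tested genes was recovered from adjusted p, rank and p. Each standard error is the log2 value divided by the t value its p implies at 15.3 degrees of freedom, found from 96 genes whose interaction variance must equal the sum of both paraquat variances, and tested on simulated data. Unlisted comparisons were rebuilt from listed ones or limited by the listing limit. Genes named are MRD1, QQS, TRM4B, the 5 genes most like each, listed neighbours, and up to 4 changed members of each of 7 lists (152 entries), with exceptions marked. The members and lists were chosen with earlier results of these data known. TAIR10.1 served for sequence, since 97.7% of 38755 introns between deposited exons began with GT and ended with AG in it. Software was BLAST+ 2.17.0, scipy 1.17.1, pandas 2.3.3, numpy 2.4.6 and matplotlib 3.10.9 under Python 3.11.15. Alternatives were the degrees of freedom, call thresholds, numbers of neighbours and the distance measure.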

Additional observations from a re-analysis of the deposited data

Results flagged for a closer look

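The QQS response to paraquat differed between the genotypes by 3.94 ± 0.77 on the log2 scale, with an adjusted p of 0.0422 for limma's interaction term in the authors' deposited table. It was picked out because the effect of 1 treatment differed between 2 genotypes, with a rise of 2.51 in libraries labelled trm4b-1 and a rebuilt value of -1.42 in WT. The test uses libraries on which QQS was chosen, so its p is not independent of that choice.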

How the results depend on the processing

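Of 119 values compared under an alternative, 81 kept their value or stayed close to it and 38 moved. With 8 residual degrees of freedom in place of 15.3, the log2 differences of MRD1 and QQS were the same by construction, the MRD1 standard errors were 0.19 and 0.18 between genotypes and 0.26 for the interaction, and the limits of its paraquat response became -0.74 to -0.41 in WT and 0.51 to 0.83 in libraries labelled trm4b-1, which leaves 0 outside both. The smaller error assumed there narrows the limits. That setting would also have QQS pass the listing limit with paraquat in WT, where it was not listed. No MRD1 response is therefore read from it. Of 84 list counts, 32 moved with another threshold, and 1 of 16 neighbour counts did (6 for MRD1 with paraquat in WT, with 20 genes on each side). With distances divided by standard errors, 2 of the 5 genes most like QQS were kept. No paired analysis was possible because the tables hold no values per sample, and for the same reason no replicate could be left out. A second route of rebuilding could not be run for MRD1 or QQS, because each was listed on 1 route alone. Depth per sample is unknown.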

Other observations

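Because MRD1 and HEI10 lie on opposite strands and took the same direction, other such pairs were counted after their values had been seen. Among genes on opposite strands that share at least 100 exon bases and were both called, MRD1 and HEI10 were the 1 pair in each genotype comparison. With paraquat there were 39 such pairs in WT, of which 30 (76.9%) took the same direction, and 18 in libraries labelled trm4b-1, of which 14 (77.8%) did. Whether shared reads account for these shares was not tested.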
